A study of Mus musculus with 6 samples.

Results

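Kinases that regulate glycogen and energy metabolism were examined in the RNA of fetal mouse testes. These testes carried a Cre-driven deletion of Ppp1r3c, a gene needed for glycogen deposition, in somatic cells. The set comprised 10 genes of the 24470 in the deposited table, chosen by gene symbol: the glycogen synthase kinase 3 (GSK3) genes Gsk3a and Gsk3b, the 7 genes for subunits of AMP-activated protein kinase (AMPK), and Stk11, which encodes the AMPK-activating kinase LKB1. All 10 symbols were found, and 9 passed the filter on low counts, the exception being Prkag3. The tissue was described as whole testes of E12.5 embryos (the number is the embryonic day). Each of the 3 control and 3 conditional knockout (cKO) samples pooled 2 gonadal pairs. Control embryos had the genotype Ppp1r3c f/f. The cKO embryos had the genotype Sf1-Cre Ppp1r3c f/f, so floxed Ppp1r3c alleles were shared by both groups and only the cKO carried Cre. The Cre is an Nr5a1 (Sf1) transgene expressed in the progenitors of Sertoli cells, and both mouse lines were kept on a C57BL/6 background. The comparison asks whether transcripts of these kinases differ when the glycogen-targeting subunit PPP1R3C, which activates glycogen synthase through protein phosphatase 1, is lost from these cells.

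GSK3 owes its name to glycogen synthase, which it phosphorylates and thereby inactivates, and it is itself inhibited by phosphorylation downstream of insulin signaling. AMPK is a heterotrimer of a catalytic alpha, a scaffolding beta and a nucleotide-binding gamma subunit. It is switched on when AMP or ADP rises relative to ATP and when LKB1 phosphorylates the alpha subunit, and its beta subunits carry a carbohydrate-binding module that attaches to glycogen. All of these proteins are regulated largely after translation, so the values given here are mRNA levels and not kinase activities.

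The samples were checked before the kinases were compared. Library totals lay between 16139487 and 44145158 counts, with control replicate 1 the shallowest. Ppp1r3c was at 24.4, 22.1 and 22.9 CPM (counts relative to the TMM-scaled library total) in control replicates 1 to 3 and at 4.71, 5.37 and 5.96 CPM in cKO replicates 1 to 3, as the labels imply. All 10 Sertoli cell markers passed the filter, and their summed level was 2214 to 2725 CPM in control and 2241 to 2779 CPM in cKO samples, with 4 higher and 6 lower in cKO (3 with an unadjusted edgeR p under 0.05, 0 called). The library labelled cKO replicate 3 stood apart, with 12534 counts of Xist, the transcript of the inactive X chromosome of XX cells, against 6 to 41 counts in the other libraries, so the kinase genes and the calls made by DESeq2 are also given without it. Fst, a gene of the female supporting lineage, was at 50.9 CPM in that library and at 2.02 CPM or less in the others. Y-linked genes summed to 220 CPM in that library and to 258 to 277 CPM in the others. With Xist high and Y-linked genes present, this pool held RNA of XX as well as XY cells. It is counted among the cKO testes below unless stated otherwise. Pre-granulosa cell markers summed to 268 CPM in it, to 100.2 and 97.3 CPM in the other cKO samples and to 82.8 to 99.99 CPM in control samples, and all 6 had positive log2 fold changes (4 with an unadjusted edgeR p under 0.05, 0 called, median 1.02). The 10 tested germ cell markers all had negative log2 fold changes (9 with an unadjusted edgeR p under 0.05, 0 called), Nanos2 was at 0 in some samples, and the summed level of the 12-gene list was 482 to 777 CPM in control and 242 to 501 CPM in cKO samples. Mesonephros markers, a list that includes Wt1 and Emx2 of the gonad itself, summed to 405 to 455 CPM in control samples. Their sums in cKO replicates 1 to 3 were 498, 494 and 624 CPM, without overlap, as for 15.6% of all tested genes. All 6 tested mesonephros markers had positive log2 fold changes (5 with an unadjusted edgeR p under 0.05, 0 called, median 0.52). The part of either list in the results was not tested. In such bulk samples, fewer cells of a type and less RNA per cell cannot be told apart. By counting stained germ cells, the paper reported a significantly lower number in cKO testes at E12.5.

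The sequence just upstream of the transcription start was read for each gene from RefSeq (GRCm38.p6, the assembly called mm10), and all 10 genes were matched, with 12 starts because Prkag2 has 3. Shown here are the 250 bases before the start of the most abundant gene of the set (Gsk3a), of the gene with the lowest p (Gsk3b) and of the gene that was barely detected (Prkag3), 5′ to 3′ on the strand of the gene, with CG dinucleotides in capitals. They are chr7:25237852-25238101 (minus strand), chr16:38088751-38089000 (plus strand) and chr1:74748956-74749205 (minus strand).
Gsk3a: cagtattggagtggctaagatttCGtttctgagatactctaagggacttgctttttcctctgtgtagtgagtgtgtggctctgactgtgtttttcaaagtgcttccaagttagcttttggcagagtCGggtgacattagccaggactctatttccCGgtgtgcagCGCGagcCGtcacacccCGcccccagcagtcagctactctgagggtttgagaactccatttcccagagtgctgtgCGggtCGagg
Gsk3b: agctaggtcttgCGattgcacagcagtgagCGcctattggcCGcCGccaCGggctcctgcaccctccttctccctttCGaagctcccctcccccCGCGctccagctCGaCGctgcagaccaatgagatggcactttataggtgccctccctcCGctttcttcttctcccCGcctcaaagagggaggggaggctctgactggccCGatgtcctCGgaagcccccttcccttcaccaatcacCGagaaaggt
Prkag3: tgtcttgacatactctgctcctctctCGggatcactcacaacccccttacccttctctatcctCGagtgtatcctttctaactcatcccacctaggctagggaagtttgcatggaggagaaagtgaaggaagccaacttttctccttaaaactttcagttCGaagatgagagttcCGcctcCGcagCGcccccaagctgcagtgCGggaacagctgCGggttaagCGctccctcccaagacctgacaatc

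The Gsk3a and Prkag3 windows held 9 CG dinucleotides each and the Gsk3b window 15, while the median was 6 over all 32851 windows of this length and 14 over the 15470 windows of tested genes. Across the set the number ran from 4, at 1 of the 3 starts of Prkag2, to 45 at Prkaa1. The GC box motif (GGGCGG on either strand) was found in 7 of the 12 windows and in 32.7% of all windows. The CCAAT motif, on either strand, was in 6 of 12 and in 33.8% of all windows. The TATAAA motif, on either strand, was in 1 of 12, that of Gsk3b, and in 12.4% of all windows. The motif shares were not computed for windows of tested genes alone, and Prkag2 gave 3 of the 12 windows, so no enrichment is read from them. The most and the least abundant gene of the set thus had the same number of CG dinucleotides.

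Levels of different genes were compared per length, as CPM per kb of exon. Gsk3a was the most abundant, at 54.6 ± 1.19 CPM per kb (SD, n = 3) in control testes, and its mean over the 6 samples lay above that of 92.5% of the tested genes. Stk11 followed at 38.3 ± 0.447 and Prkag1 at 37.4 ± 2.31 CPM per kb (SD, n = 3 each), and the ranges of these neighbours overlapped. Prkab1 (21.4 ± 1.73) and Gsk3b (20.9 ± 1.41 CPM per kb, SD, n = 3 each) also overlapped. The others were separated by more than their spread. Prkaa1 was at 11.3 ± 0.631, Prkag2 at 5.41 ± 0.262, Prkab2 at 3.66 ± 0.244 and Prkaa2 at 0.365 ± 0.0395 CPM per kb (SD, n = 3 each). Prkag3 was last, with 0 to 0.0830 CPM per kb in the control samples. The means of the cKO samples gave the same order except that Gsk3b (23.1 ± 1.09) lay above Prkab1 (21.9 ± 0.786 CPM per kb, SD, n = 3 each), and their ranges overlapped there too.

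**Figure D1:**
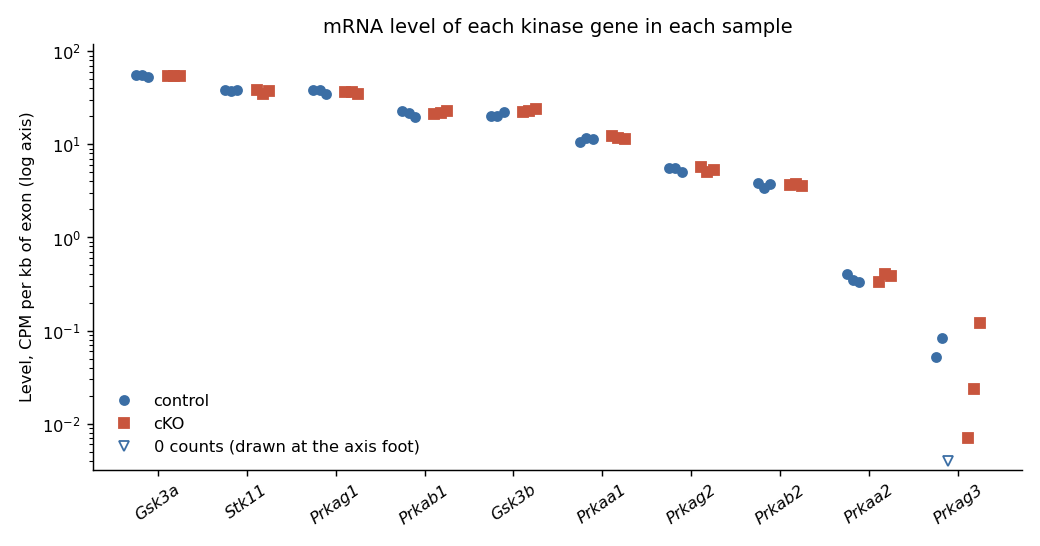
The level of each of the 10 kinase genes in each sample, in CPM per kb of exon on a log axis, with circles for the 3 control and squares for the 3 cKO samples. Genes are ordered by their control mean, from Gsk3a at 53.2 to 55.4 CPM per kb in control samples down to Prkag3, whose control replicate 3 had 0 counts and is drawn as an open triangle at the foot of the axis.

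Transcripts of the kinase set differed little between cKO and control testes. edgeR called (FDR under 0.05 over all genes tested) 0 of the 9 tested members, DESeq2 and limma-voom also called 0. Of all 15577 genes edgeR called 6 (0.0385%), with 0.0321% higher and 0.00642% lower in cKO testes, and DESeq2 called 0.779% of the genes it adjusted. At an unadjusted p under 0.05 there was 1 member by edgeR, Gsk3b, which is 11.1% of the 9, and 11.4% of all tested genes had such a p. DESeq2 likewise gave such a p for 1 member, beside 8.25% of all genes. The log2 fold changes of the members ran from -0.06 (Prkag1) to 0.14 (Gsk3b), with 5 higher and 4 lower in cKO testes. Their median was 0.0012, against -0.0034 for all tested genes. The median of their absolute values was 0.0395, against 0.0993 for all tested genes. The members and all tested genes were not matched for level, so the smaller median is not read as a trait of the set. In every one of the 9 the CPM ranges of the groups overlapped. The groups did not overlap for 15.6% of all tested genes, and with 9 genes the count of 0 is near that background. Without cKO replicate 3 the log2 fold changes of cKO against control lay between -0.06 (Stk11) and 0.11 (Gsk3b), and 0 members were called. In that fit Prkaa1 was at 0.09, Prkaa2 and Prkab2 at 0.02 each, Prkab1 at 0.0077, Prkag2 at -0.00049, Gsk3a at -0.0094 and Prkag1 at -0.03.

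**Figure D2:**
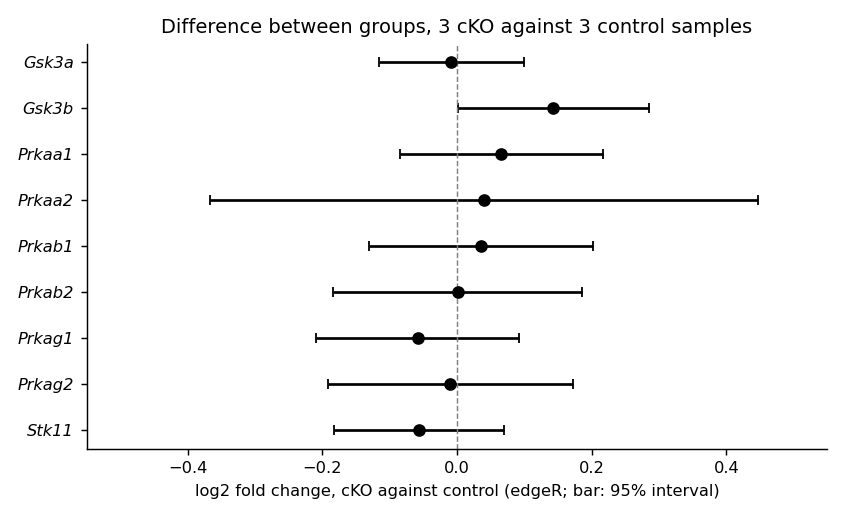
The log2 fold change of cKO against control for the 9 tested members, with its 95% interval from the edgeR fit over 3 cKO and 3 control samples. The interval includes 0 for 8 of 9 genes, and the exception is Gsk3b, whose interval starts at 0.0014; the widest interval is that of Prkaa2.

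The GSK3 genes were taken first. Gsk3a (chromosome 7, 25228259 to 25237851, minus strand, mm10) encodes the larger of the GSK3 isoforms. Its level was 125, 125 and 120.3 CPM in control replicates 1 to 3 and 122, 123 and 123 CPM in cKO replicates 1 to 3. The cKO values lay within the range of the control values. The difference on the log2 scale was -0.0082 (edgeR FDR 0.966 with an SE of 0.0482), and its 95% interval, -0.12 to 0.10, corresponds to a fold between 0.922 and 1.07. Gsk3a was also among the steadiest transcripts of the data set: the SD of its log2 CPM over the 6 samples, 0.0213, was larger than that of only 0.289% of tested genes. Genes were not matched for level in this ranking.

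Gsk3b (chromosome 16, 38089001 to 38246079, plus strand) encodes the isoform best known from the destruction complex of beta-catenin. It was at 166, 169 and 188 CPM in control replicates 1 to 3 and at 184, 193 and 202 CPM in cKO replicates 1 to 3. Of the cKO samples 2 lay above every control sample, while cKO replicate 1 lay below control replicate 3. On the log2 scale the difference was 0.14 (SE 0.0630, 95% interval 0.0014 to 0.28, unadjusted edgeR p 0.0482), with an FDR of 0.439, so the difference did not pass the correction. The exact permutation test (two-sided) gave p = 0.2, where 0.1 is the smallest value that 3 against 3 samples allow. Without single samples the log2 fold change ranged from 0.11 to 0.19 and the unadjusted edgeR p from 0.00994 to 0.173. It was 0.11 without cKO replicate 3 (unadjusted p 0.169). The samples with the highest Gsk3b levels in cKO, replicates 2 and 3, were those with the lowest summed germ cell markers (242 and 375 CPM), whereas among controls replicate 3 was highest in both Gsk3b and germ cell markers (777 CPM). The part of these markers in the difference was not tested.

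Of the combined GSK3 mRNA per kb, Gsk3b made up 27.7% ± 1.79 (SD, n = 3) in control and 29.9% ± 0.894 (SD, n = 3) in cKO testes. The share ranged from 26.5% to 30.8% over the 6 samples, and the groups overlapped. The share depends on the scale: Gsk3b has 8342 bases of exon and Gsk3a 2260, and in counts not divided by length Gsk3b made up 59.9% on average. The sum of both genes per kb was 75.4, 75.4 and 75.8 in control and 75.9, 77.6 and 78.6 in cKO replicates, so the groups did not overlap, but the sum of their CPM without length (292 to 308 against 306 to 325) did overlap. The sum was picked with its values in view, and the groups did not overlap for 15.6% of all tested genes.

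The activating kinase of AMPK came next. Stk11 (chromosome 10, 80115803 to 80130685, plus strand) encodes LKB1, which acts in a complex with STRAD and MO25 proteins. It was at 108, 106 and 107 CPM in control replicates 1 to 3 and at 107, 97.3 and 104 CPM in cKO replicates 1 to 3. In cKO replicates 2 and 3 the level lay below every control sample and cKO replicate 1 lay within their range. Its fitted log2 fold change was -0.06 (SE 0.0561, 95% interval -0.18 to 0.07, edgeR FDR 0.724). The SD was 1.25 CPM among controls and 5.13 CPM among cKO samples (n = 3 each).

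**Figure D3:**
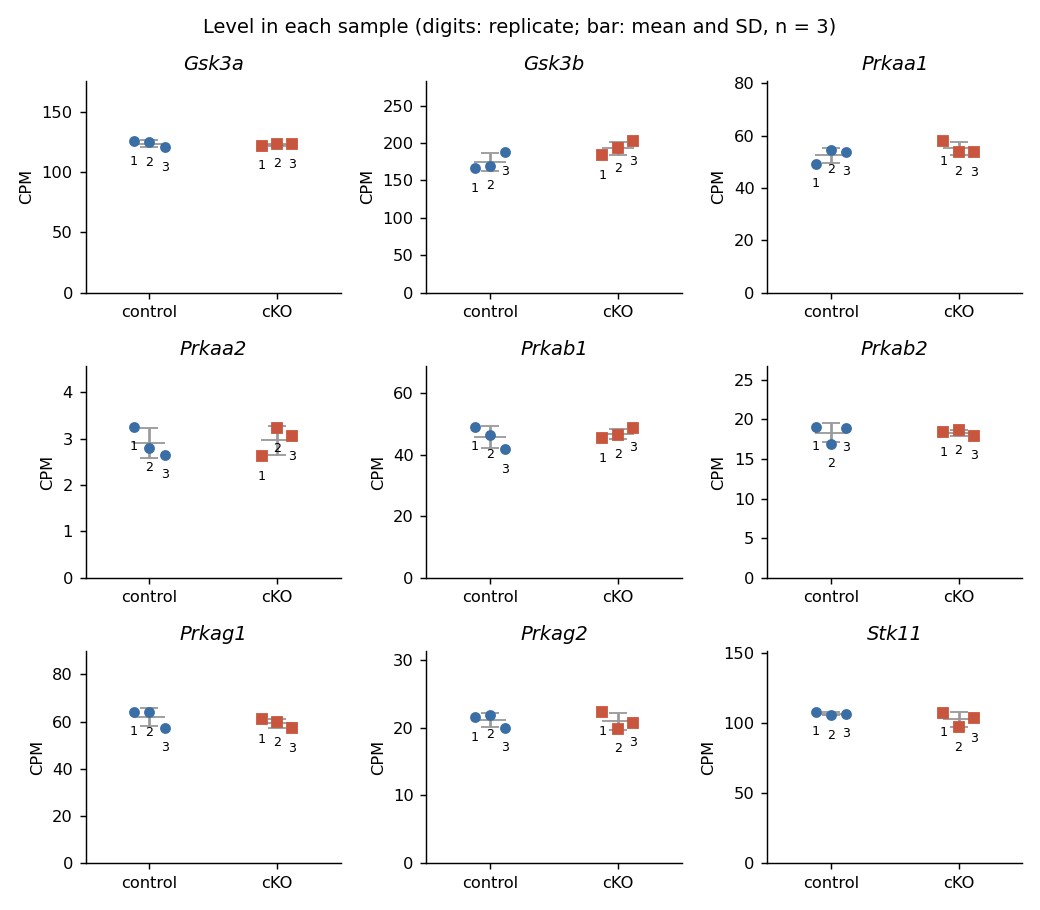
CPM of each of the 9 tested members in each sample, 1 panel per gene with the axis starting at 0, circles for control and squares for cKO samples, digits for the replicate number, and grey bars for the mean and SD (n = 3). In every panel the points of the groups overlap, and Gsk3b shows the largest difference, from a control mean of 175 to a cKO mean of 193 CPM.

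The catalytic alpha subunits of AMPK were very unequal in level. Prkaa1 (chromosome 15, 5143861 to 5181899, plus strand), for alpha1, was at 49.2, 54.7 and 53.8 CPM in control and 57.8, 53.9 and 53.6 CPM in cKO replicates 1 to 3. Only cKO replicate 1 lay above every control sample. The fitted log2 difference was 0.07 (SE 0.0671, 95% interval -0.08 to 0.22, edgeR FDR 0.729). Prkaa2 (chromosome 4, 105029650 to 105109898, minus strand), for alpha2, the isoform prominent in skeletal and heart muscle, was at 3.26, 2.81 and 2.66 CPM in control and 2.62, 3.23 and 3.06 CPM in cKO replicates 1 to 3. The highest sample of the 6 was a control and the lowest a cKO. It rested on 53 to 124 counts per library, and its log2 fold change of 0.04 (edgeR FDR 0.953 with an SE of 0.181) had the widest 95% interval of the set, -0.37 to 0.45, a fold between 0.775 and 1.36. Per kb, Prkaa1 made up 96.8% ± 0.505 of the alpha mRNA in control and 96.9% ± 0.423 in cKO testes (SD, n = 3 each).

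The beta subunits are those that bind glycogen. Prkab1 (chromosome 5, 116013590 to 116024428, minus strand), for beta1, was at 49.1, 46.4 and 41.8 CPM in control and 45.3, 46.4 and 48.6 CPM in cKO replicates 1 to 3. All cKO samples lay between the lowest and the highest control. On the log2 scale the difference was 0.04 (SE 0.0740, 95% interval -0.13 to 0.20, edgeR FDR 0.886), and it became -0.03 without control replicate 3. Prkab2 (chromosome 3, 97658212 to 97673083, plus strand), for beta2, was at 19.1, 16.9 and 19.0 CPM in control and 18.4, 18.6 and 17.9 CPM in cKO replicates 1 to 3. Again all cKO samples lay within the control range. Its fitted log2 fold change was 0.0012 (SE 0.0822, 95% interval -0.18 to 0.19, edgeR FDR 0.998). Prkab1 made up 85.4% ± 1.42 of the beta mRNA per kb in control and 85.7% ± 0.632 in cKO testes (SD, n = 3 each). The 95% intervals of both glycogen-binding subunits lay within folds of 0.880 to 1.15.

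The gamma subunits bind AMP, ADP and ATP. Prkag1 (chromosome 15, 98812797 to 98831508, minus strand), for gamma1, was at 64.2, 64.0 and 57.4 CPM in control and 61.0, 59.7 and 57.2 CPM in cKO replicates 1 to 3. Only cKO replicate 3 lay below every control sample, by a small margin. The fitted log2 difference was -0.06 (SE 0.0671, 95% interval -0.21 to 0.09, edgeR FDR 0.766). Prkag2 (chromosome 5, 24862735 to 25100642, minus strand), for gamma2, was at 21.5, 21.9 and 20.0 CPM in control and 22.3, 19.8 and 20.7 CPM in cKO replicates 1 to 3. The cKO samples held both the highest and the lowest value of the 6. Its log2 fold change was -0.0099 (SE 0.0808, 95% interval -0.19 to 0.17, edgeR FDR 0.976).

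Prkag3 (chromosome 1, 74738922 to 74748955, minus strand), for gamma3, a subunit known from skeletal muscle, was barely detected. It had 3, 13 and 0 counts in control and 1, 3 and 14 counts in cKO replicates 1 to 3. Only control replicate 2 and cKO replicate 3 exceeded 3 counts, the number that a count of 0 still allows, which corresponds to 0.0679 to 0.185 CPM in these libraries. The level was too low for the test, and a difference between the groups was not detectable at this depth. The 7 skeletal muscle markers summed to 4.26 to 5.42 CPM in control and 3.64 to 3.96 CPM in cKO samples, without overlap, as for 15.6% of all tested genes. Only 3 of the 7 passed the filter, 0 of them with an unadjusted edgeR p under 0.05. A link of these markers to Prkag3 was not tested. Prkag1 made up 87.3% ± 0.152 of the gamma mRNA per kb in control and 86.9% ± 0.645 in cKO testes (SD, n = 3 each).

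**Figure D4:**
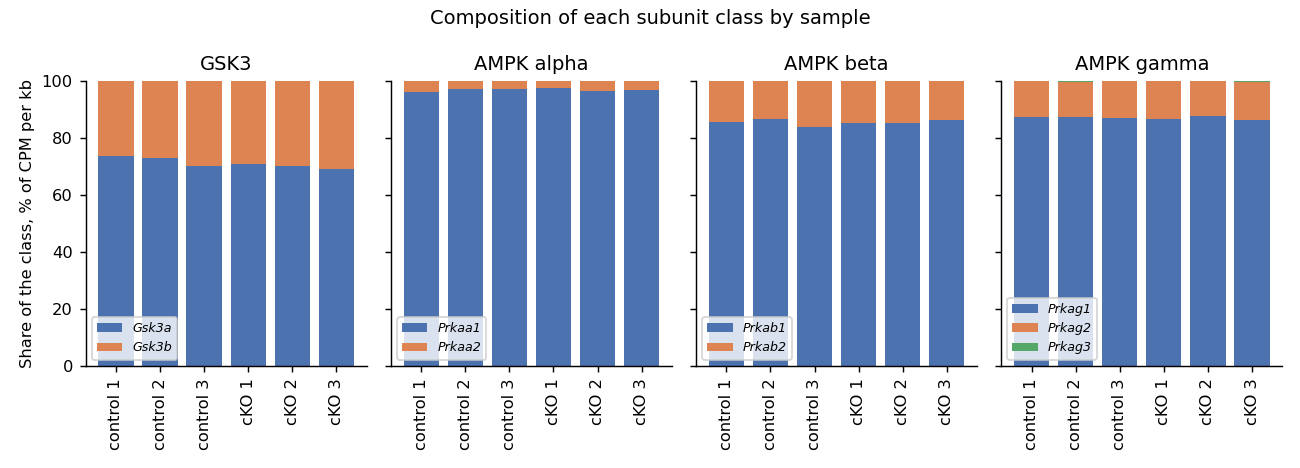
Composition of each subunit class in each of the 6 samples, as the percentage of the summed CPM per kb of the class, with 1 bar per sample. Gsk3a, Prkaa1, Prkab1 and Prkag1 form the larger part of their class in every sample, and Prkag3 is too low to be seen.

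Taking the subunits together, gamma mRNA exceeded beta mRNA, and beta exceeded alpha, in each of the 6 samples. The sums over isoforms were 10.98 to 12.7 CPM per kb for alpha, 23.4 to 26.8 for beta and 39.9 to 44.4 for gamma. The ratio of beta to alpha was 2.16 ± 0.249 in control and 2.10 ± 0.132 in cKO testes, and that of gamma to alpha was 3.69 ± 0.346 and 3.39 ± 0.0477 (SD, n = 3 each). For both ratios the groups overlapped. Without division by length the ratio of beta to alpha was 1.05 to 1.30 and that of gamma to alpha 1.37 to 1.64. These ratios, too, were picked with the values in view.

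The genes whose centred log2 CPM followed a member most closely over the 6 samples were sought by the mean absolute difference. For Gsk3b, the member of lowest p, these were Xpr1 (0.0149), Tstd3 (0.0177) and Nnt (0.0208), where the median over all tested genes was 0.135. For Prkaa2, the member with the largest SD, they were Gimap6 (0.0183), Cradd (0.0194) and Tcta (0.0255), with a median of 0.153. None of these 6 genes was called by edgeR, and with 6 samples such likeness is a description only.

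The wider pathway was described from 8 lists of known regulators, partners and substrates, which held 110 different genes, of which 108 were tested. edgeR called 1 of these, Ppp1r3c itself, and DESeq2 called 3, or 2 without cKO replicate 3. At an unadjusted edgeR p under 0.05 there were 11 genes higher in cKO testes and 3 lower, or 13.0% of the tested genes together, beside 11.4% of all tested genes (5.56% higher and 5.8% lower). These counts include cKO replicate 3. Without that library the unadjusted edgeR p rose to 0.059 for Prkaca, 0.0703 for Dpysl2, 0.154 for Txnip and 0.160 for Mark1. It stayed under 0.05 for Ppp1r3c, Gbe1, Tbc1d4, Ak3, Dyrk2, Map1b, Camkk2 and Prkca, and fell to 0.0299 for Mark4. Myc (unadjusted edgeR p 0.0290 with all samples) and Rps6ka3 (0.0231), both higher in cKO, were also counted above but not examined without that library. Rps6ka3 was at 187, 190 and 180 CPM in control and 208, 196 and 256 CPM in cKO replicates 1 to 3. Of the 108 genes, 62 had positive and 46 negative log2 fold changes, with a median of 0.02.

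Upstream of AMPK, 0 of 14 genes of the LKB1 complex and other AMPK regulators were called (1 with an unadjusted p under 0.05, median log2 fold change -0.04). Camkk2, which encodes a calcium-dependent kinase able to phosphorylate AMPK alpha, had the lowest p, at 132, 122 and 120 CPM in control and 141, 150 and 132 CPM in cKO replicates 1 to 3. The ranges overlapped only at their edge (log2 fold change 0.18, edgeR FDR 0.382 with an SE of 0.0646). Sesn2, for a stress-induced sestrin, followed, with 29.9 ± 0.632 CPM in control and 26.4 ± 2.91 CPM in cKO testes (SD, n = 3 each, edgeR FDR 0.467). Of the 12 AMPK-related kinases, which LKB1 also activates, 0 were called (1 with an unadjusted p under 0.05, median 0.01). The lowest p values were those of the microtubule affinity kinases Mark1 (log2 fold change -0.21, edgeR FDR 0.418 with an SE of 0.0861) and Mark4 (0.22, edgeR FDR 0.441 with an SE of 0.1004), which differed in sign.

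Among AMPK substrates and targets edgeR called 0 of 17 tested genes (2 with an unadjusted p under 0.05, median 0.03). Tbc1d4, for the Rab GTPase-activating protein AS160 that holds back glucose transporter traffic, was at 47.8, 48.8 and 46.9 CPM in control and 56.8, 56.4 and 66.9 CPM in cKO replicates 1 to 3. Every cKO sample lay above every control sample. On the log2 scale the difference was 0.33 (SE 0.0777), and the gene was called by DESeq2 (FDR 0.0402) but not by edgeR (FDR 0.377). The level was highest in cKO replicate 3, and without that library the log2 fold change was 0.24 and DESeq2 no longer called the gene (FDR 0.366). Txnip, for a protein that restrains glucose uptake, had a log2 fold change of -0.15 (edgeR FDR 0.419 with an SE of 0.0630). Of the adenylate kinases and AMP deaminases, which act on adenine nucleotides, 0 of 8 tested genes were called (1 with an unadjusted p under 0.05, median 0.04). Ak3 (log2 fold change 0.16, edgeR FDR 0.436 with an SE of 0.0694) and Ak1 (-0.37, edgeR FDR 0.454 with an SE of 0.172) had the lowest p values.

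On the GSK3 side, 0 of 14 upstream inhibitors were called (3 with an unadjusted p under 0.05, each higher in cKO, median 0.05). These 3 were 21.4% of the list, beside 11.4% of all tested genes, and no rise of the list is read from them. The lowest p values were those of Prkca (log2 fold change 0.33, edgeR FDR 0.377 with an SE of 0.107) and Prkaca (0.16, edgeR FDR 0.377 with an SE of 0.0541), for catalytic kinases of the protein kinase C and A families. Prkaca was at 133, 125 and 128 CPM in control and 136, 147 and 147 CPM in cKO replicates 1 to 3, without overlap. Of 17 scaffolds, binding and priming partners 0 were called (1 with an unadjusted p under 0.05, median -0.03, which became 0.02 without control replicate 3). Here the priming kinase gene Dyrk2 (log2 fold change 0.30, edgeR FDR 0.377 with an SE of 0.0826) and the GSK3-binding protein gene Frat2 (-0.28, edgeR FDR 0.522 with an SE of 0.156) led by p.

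Of 16 genes for GSK3 substrates, 13 had positive log2 fold changes, with a median of 0.08, and edgeR called 0 (3 with an unadjusted p under 0.05, each higher in cKO). These 3 were 18.8% of the list, beside 11.4% of all tested genes, whose median log2 fold change was -0.0034. The share of positive changes among all tested genes was not computed, so no rise of the list is read from the 13. Map1b, which encodes a microtubule-associated protein, was at 149, 143 and 154 CPM in control and 199.7, 183 and 181 CPM in cKO replicates 1 to 3. All cKO samples lay above all control samples. DESeq2 called it (log2 fold change by edgeR 0.34, SE 0.0573; DESeq2 FDR 0.00069), whereas the edgeR FDR was 0.365. Without cKO replicate 3 its log2 fold change was 0.36, with a DESeq2 FDR of 0.00389. Dpysl2, for a collapsin response mediator protein, had a log2 fold change of 0.33 (edgeR FDR 0.390 with an SE of 0.126) with overlapping groups. In the list of other glycogen-binding proteins, Ppp1r3c was the 1 call among 10 genes (log2 fold change -2.11, edgeR FDR 0.000126 with an SE of 0.111), as the design fixes. The median of this list was 0.14, but 0.05 without cKO replicate 1 and 0.07 without control replicate 1. Gbe1, for the glycogen branching enzyme, had 16.8 ± 1.06 CPM in control and 20.4 ± 1.28 CPM in cKO testes (SD, n = 3 each, edgeR FDR 0.377).

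**Figure D5:**
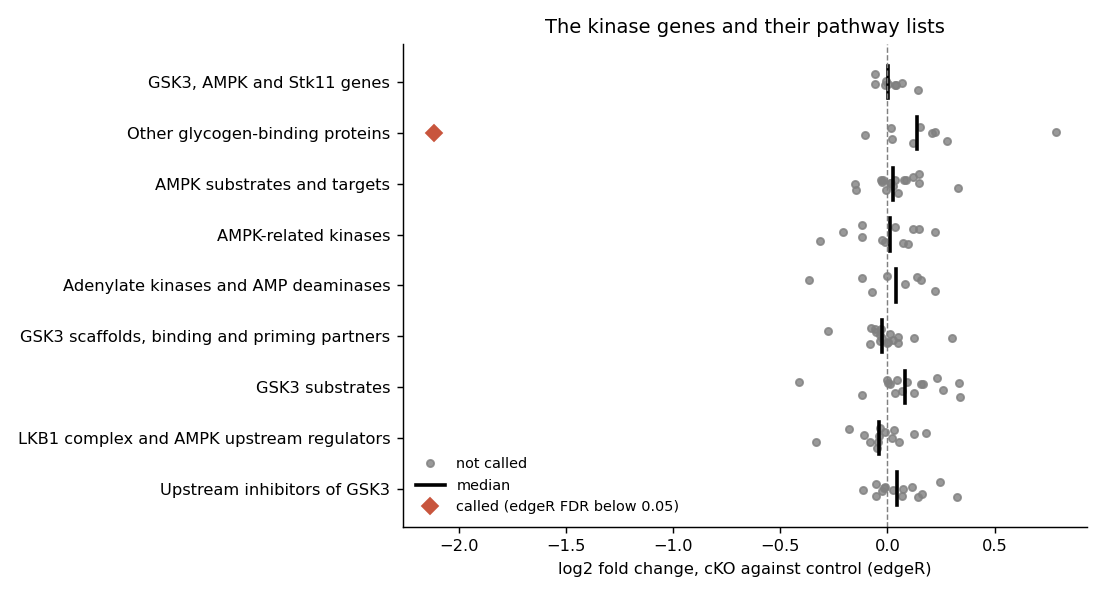
Log2 fold changes of cKO against control (edgeR) for the kinase genes and the 8 pathway lists, 1 point per tested gene, a vertical line at the median of each list, and a diamond for a called gene. The medians lie between -0.04 and 0.14, and the only diamond is Ppp1r3c at -2.11.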

How the data were processed

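The authors prepared stranded mRNA libraries, aligned read pairs to mm10 with STAR (version 2.5 per the labels) and counted them per RefSeq gene and strand with featureCounts (Subread 1.5.0-p1). The deposited values are raw counts, and 0 columns of samples were left unused. Here edgeR 4.0.16 in R 4.3.3 (filterByExpr with a minimum count of 10, TMM, quasi-likelihood F-test, no covariates) was fitted to all genes, and the FDR is the Benjamini-Hochberg value over all 15577 genes tested. DESeq2 1.42.0 and limma 3.58.1 (voom) were alternatives. The standard error was derived from the F statistic. Log2 CPM used a prior count of 2. The table holds no gene lengths, so exon unions of GENCODE vM21 basic (GRCm38) were used, which cover 97.8% of tested genes. The design had assumed deposited lengths. The edgeR test was also run on simulated counts with 200 changed genes, each with a change larger than that of any member. That check therefore does not bear on differences as small as those of the members. Intervals and floors cover these samples and counting error only.

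The members and lists were chosen with earlier results of these data known, and so support nothing independently. Named were all members, Ppp1r3c, Xist, and in each list the called genes and those of lowest p. Myc and Rps6ka3 were added after their values were seen. Nothing in the labels says whether pooled embryos came from separate litters, so p-values measure the spread between these samples. The calls of marker genes here and above are those of edgeR, which called 0 genes of the 12 lists and 6 of all tested genes. DESeq2 called 111 of all genes it adjusted, and its calls of marker genes were not examined. The sums of endothelial (545 to 627 CPM), macrophage (29.8 to 33.9), erythroid (2317 to 3275), interstitial (2555 to 3158), fetal Leydig (162 to 435) and Y-linked genes (220 to 277) overlapped between groups. No marker gene was at 0 in all samples.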

Additional observations from a re-analysis of the deposited data

How the results depend on the processing

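No member was called under any of the 13 alternatives (DESeq2, limma-voom, RLE size factors, filters on low counts, the replicate block, thinned libraries and leaving out single samples). The number of called genes was 6, 111 with DESeq2 and 3 with the replicate block, and 2 to 8 when 1 sample was left out. Leaving out control replicate 1 or 3 gave 2 genes each, and leaving out cKO replicate 3 gave 3. DESeq2 called 3 pathway genes where edgeR called 1. DESeq2 without cKO replicate 3, an alternative chosen after seeing the data, called 14 genes, 2 of them pathway genes and 0 members. The causes were not tested. Gsk3b, Prkaa1, Prkag1 and Stk11 kept their direction in all alternatives, but when 1 sample was left out Prkaa1 ranged from 0.02 (without control replicate 1) to 0.09, Prkag1 from -0.12 (control replicate 3 left out) to -0.03 (cKO replicate 3 left out) and Stk11 from -0.09 to -0.02 (without cKO replicate 2). The other 5 tested members lie near 0 and did not: without single samples Gsk3a ranged from -0.032 to 0.0026, Prkaa2 from -0.028 to 0.13, Prkab1 from -0.033 to 0.086, Prkab2 from -0.066 to 0.029 and Prkag2 from -0.059 to 0.029, and Prkab1 was at -0.0049 in libraries thinned to the smallest total. No direction is read from them.

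Raw counts in place of counts per kb moved the mean isoform shares to 59.9% for Gsk3b, 94.8% for Prkaa1, 71.6% for Prkab1 and 74.1% for Prkag1, because the isoforms differ in length. The length of the longest transcript, chosen after seeing the data, moved Prkag1 to 85.2%. The groups overlapped on each of these scales.

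The median of the other glycogen-binding proteins, 0.14, was 0.07 both with the stricter filter and in thinned libraries. The medians of 3 lists changed sign when 1 sample was left out: GSK3 scaffolds ranged from -0.05 to 0.02, AMPK-related kinases from -0.0038 to 0.04 and the LKB1 complex from -0.05 to 0.0010.

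The titles share replicate numbers, but samples with the same number did not deviate together (correlations of -0.203, -0.266 and -0.13), and the numbers were not taken as pairs. With the replicate block Gsk3b had an unadjusted edgeR p of 0.0643. An unadjusted p under 0.05 for Gsk3b was kept in 5 of these alternatives. Depth limits Prkaa2 and Prkag3 most.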
